A study of Homo sapiens with 24 samples.

Results

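DEAD box and DEAH box helicases are enzymes that use ATP to bind, remodel or unwind RNA and RNA-protein complexes. They are named after the amino acids of a conserved motif and act at nearly every step of RNA life, from spliceosome assembly and mRNA export to ribosome assembly, translation and decay. Splicing itself depends on several of them, and their own transcripts hold many introns that must be removed before the proteins can be made.

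The 37 helicase genes described here were taken by name (the DDX and DHX genes DDX1, DDX3X, DDX5, DDX6, DDX10, DDX17, DDX18, DDX19A, DDX19B, DDX20, DDX21, DDX23, DDX24, DDX27, DDX31, DDX39A, DDX39B, DDX41, DDX42, DDX47, DDX49, DDX50, DDX51, DDX52, DDX54, DDX55, DDX56, DHX9, DHX29, DHX30, DHX33, DHX34, DHX35, DHX36, DHX37, DHX40 and DHX57), and every splice junction row lying on the strand and within the span of one of these genes was kept. This gave 7548 of the 1823643 usable rows, of which 2448 were boundary rows, 1324 joined sites across at least 1 exon of the canonical transcript (exon-skipping rows) and 3776 were other spliced rows. No row fell in more than 1 of the 37 genes. A boundary row counts reads that run across an exon-intron border without splicing and is read here as intron retention. Where the site is not annotated or lies inside an exon of another transcript, such reads may be exonic. The row then need not measure retention. Each value is a percent spliced in (PSI), the share of all reads at a splice site that follow the given path, so that the rows at a site sum to 100%. Each spliced junction appears in the files as a pair of rows, 1 for its 5′ site and 1 for its 3′ site.

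The samples were polyA RNA from HCT-116 cells, an established human colorectal carcinoma line. The cells overexpressed either wild-type PHF5A (WT) or PHF5A carrying the Y36C substitution in the parental line. PHF5A is a small subunit of the SF3b complex, which helps the U2 snRNP hold the branch point of an intron. Each genotype was treated with DMSO, the solvent, or with E7107, a pladienolide derivative that binds SF3b, for 6 h, giving 4 groups of 6 samples and 24 samples in all. The labels give no dose, and they do not say whether the 6 samples of a group came from independent cultures, so that all p-values measure the spread between these samples. The substitution itself cannot be read from PSI values, and the labels were therefore not checked against it. No 2 samples held identical values.

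The files hold percentages only, so read depth is unknown, and the number of covered splice sites is given instead. Among the 2492 splice sites of the helicase genes, a median of 1470 had reads in the WT DMSO samples, 1370.5 in the WT E7107 samples, 1472.5 in the Y36C DMSO samples and 1486.5 in the Y36C E7107 samples. The WT E7107 samples were thus the lowest of the 4 groups, and their range of 1359 to 1395 sites did not overlap that of any other group. Over all 636130 splice sites the medians, in the same order, were 337968.5, 282785.5, 336782 and 330507. There too the WT E7107 samples were lowest, with a range of 281164 to 283548 that did not overlap the others. The part of this difference in the results below was not tested. The epithelial markers CDH1 and KRT18 had reads at all 30 and 14 annotated sites in every sample, EPCAM at 17 to 20 of 20 and KRT8 at 21 to 25 of 26. The intestinal markers CDX2 and VIL1 had reads at 2 to 4 of 4 and at 0 to 1 of 1 sites, whereas the blood, liver and glial markers PTPRC, CD3E, ALB and GFAP had no annotated site among the rows. A share cannot tell less spliced RNA from more unspliced RNA, and the values below are shares.

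The introns that the results turn on are shown first. They were chosen with their values known, and they cover 5 patterns: retention under E7107 that was far higher in WT than in Y36C cells (DDX20 intron 6 and DHX33 intron 7), little retention in any group (DDX1 intron 11 and DDX50 intron 11), retention in both genotypes (DDX55 intron 11, DDX51 intron 6 and DDX42 intron 4), retention in Y36C cells with a fall in WT cells (DHX37 intron 22), and the matching introns of the paralogs DDX17 and DDX5. The sequences are from GRCh37 (hg19) in transcript orientation, 5′ to 3′. For DDX20 (chr1:112303748-112303847, plus strand) and DHX37 (chr12:125435097-125435235, minus strand) the whole intron is shown, and for the others the last 50 intron bases, at chr17:5356989-5357038 (DHX33, minus), chr2:15746224-15746273 (DDX1, plus), chr10:70696642-70696691 (DDX50, plus), chr12:124103166-124103215 (DDX55, plus), chr12:132626152-132626201 (DDX51, minus), chr17:61876899-61876948 (DDX42, plus), chr22:38884121-38884170 (DDX17, minus) and chr17:62496892-62496941 (DDX5, minus). Capitals mark the terminal dinucleotides of the intron, GT at the 5′ end where it is shown and AG at the 3′ end.
DDX20 intron 6: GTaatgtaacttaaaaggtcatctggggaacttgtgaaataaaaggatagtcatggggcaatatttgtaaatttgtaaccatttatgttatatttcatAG
DHX33 intron 7: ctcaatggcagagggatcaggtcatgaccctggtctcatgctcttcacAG
DDX1 intron 11: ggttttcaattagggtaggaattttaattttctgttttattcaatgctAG
DDX50 intron 11: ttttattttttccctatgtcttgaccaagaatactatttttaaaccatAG
DDX55 intron 11: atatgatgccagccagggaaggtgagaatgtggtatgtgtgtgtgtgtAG
DDX51 intron 6: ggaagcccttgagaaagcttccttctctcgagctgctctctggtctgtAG
DDX42 intron 4: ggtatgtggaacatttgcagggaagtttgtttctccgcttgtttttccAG
DHX37 intron 22: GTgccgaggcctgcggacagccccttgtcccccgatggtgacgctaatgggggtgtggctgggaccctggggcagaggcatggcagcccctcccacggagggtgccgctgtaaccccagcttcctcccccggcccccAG
DDX17 intron 11: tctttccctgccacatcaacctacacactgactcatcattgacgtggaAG
DDX5 intron 11: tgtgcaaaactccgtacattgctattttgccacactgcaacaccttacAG
The share of pyrimidines in the last 50 bases ranged from 36% for DDX55 intron 11 to 64.0% for DDX50 intron 11 and DHX37 intron 22, with 54.0% for DDX20 intron 6 and 56% for DDX1 intron 11. The median was 60% over the 573 measured introns of the 37 genes, and also over those that rose by at least 10 percentage points in either genotype, and the rank correlation of this share with the change under E7107 was -0.10 in WT and -0.05 in Y36C cells (Spearman, n = 573 introns that share libraries and genes). The intron of DDX20 is 100 bases long with a GC content of 30.0%, that of DHX37 is 139 bases long with a GC content of 71.9%.

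The question of the first comparison was how far E7107 changed splicing of the helicase transcripts in WT cells. For each gene a retention level was taken as the mean PSI of its annotated intron boundaries with reads in all 24 samples. Boundaries that lie inside an exon of another transcript were included. In WT cells the level rose under E7107 in 36 of the 37 genes and fell in none (limma, Benjamini-Hochberg adjusted over all 10266 genes tested; 0 fell at an unadjusted p under 0.05), where 72.4% of all genes tested rose and 7.63% fell. The median change was 18 percentage points over the 37 genes and 6.69 over all genes. The remaining gene, DHX35, had levels of 0% to 13.3% in the E7107 samples (median 2.92%) and 0.933% to 3.84% in the DMSO samples (median 1.59%), and only 5 of its 21 introns were measured (adjusted p = 0.72).

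**Figure D1:**
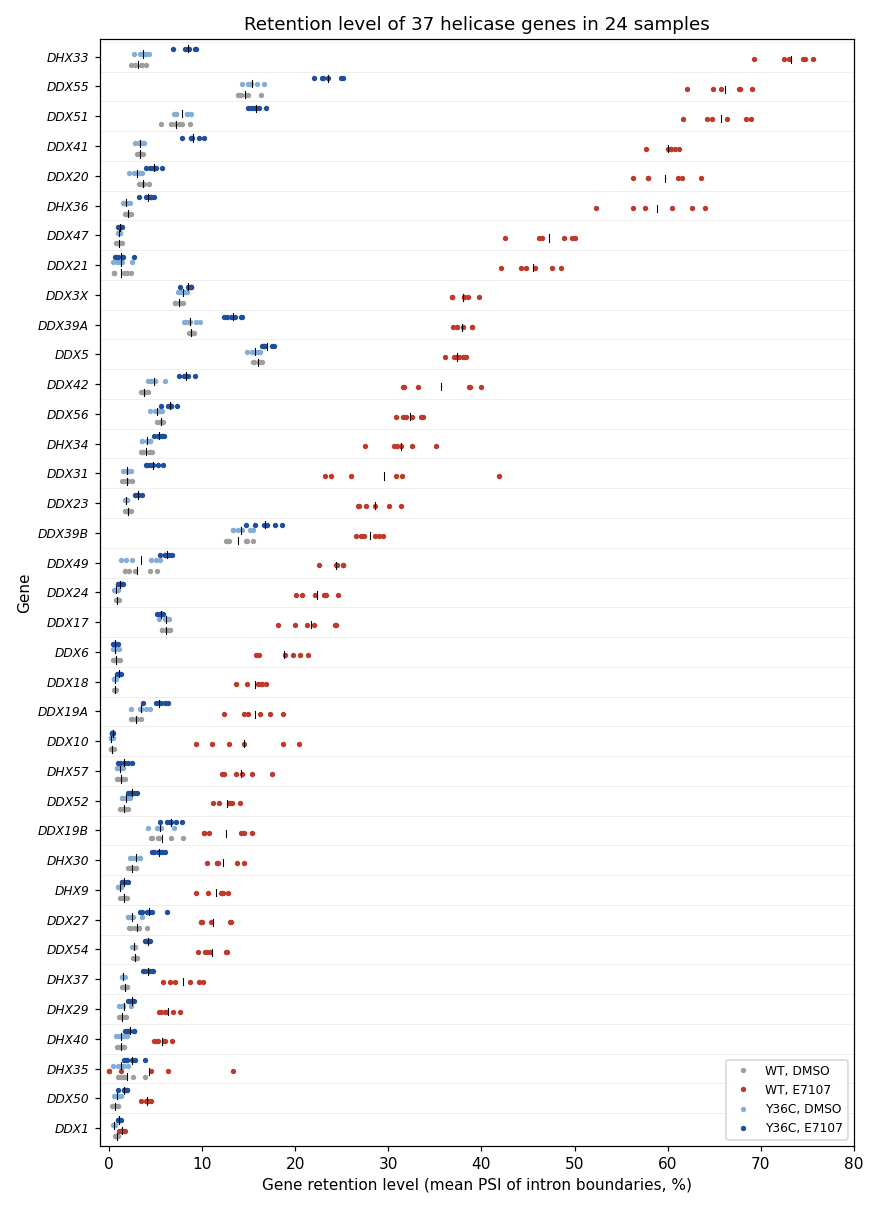
Retention level (mean PSI of the annotated intron boundaries of a gene, in %, x axis) of the 37 helicase genes (y axis, ordered by their mean in WT E7107 samples), 1 point per sample and 4 groups of 6 samples per gene, with the group mean as a vertical tick. The WT E7107 samples reach a mean of 73.3% in DHX33 and stay at 1.39% in DDX1, while the Y36C E7107 samples lie close to the DMSO samples of both genotypes.

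Among the helicases of ribosome biogenesis, which process and fold pre-rRNA in the nucleolus, all 16 rose in WT cells, with a median change of 21.4 percentage points. Over all genes tested 72.4% rose, with a median change of 6.69 percentage points. DHX33 ranged from 2.36% to 4.00% in the DMSO samples (median 3.10%) and from 69.2% to 75.6% in the E7107 samples (median 73.8%). The groups did not overlap, and the difference of 70.1 percentage points corresponded to 4.16 ± 0.08 (SE) in natural-log odds of PSI (adjusted p = 1.2e-13), the largest change among the 37 genes. DDX51 went from a mean of 7.22% ± 1.06 to 65.7% ± 2.73 (SD, n = 6) and DDX55 from 14.6% ± 0.903 to 66.2% ± 2.52. DDX47 had 0.731% to 1.38% under DMSO (median 1.03%) and 42.6% to 50.1% under E7107 (median 47.7%), again without overlap.

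The helicases DDX21 and DDX50 are nucleolar paralogs whose genes lie next to each other on chromosome 10, and their levels under E7107 were far apart. DDX21 had levels of 0.515% to 2.32% in WT DMSO samples (median 1.10%) and 42.1% to 48.5% in WT E7107 samples (median 45.3%). DDX50 had 0.303% to 0.968% (median 0.736%) and 3.43% to 4.53% (median 4.07%). Both rises passed the test, but the change was 44.2 percentage points in DDX21 and 3.36 in DDX50. All 14 introns of DDX21 rose by at least 10 percentage points, to between 29.9% and 59.2%. The intron of DDX50 with the largest rise was intron 1, whose 5′ boundary went from a median of 2.30% (1.79% to 12%) to 47.9% (37.5% to 60.9%), and the median of the introns under E7107 was 1.81%. When the median over boundaries replaced the mean, the change of DDX50 in WT cells was 0.

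**Figure D2:**
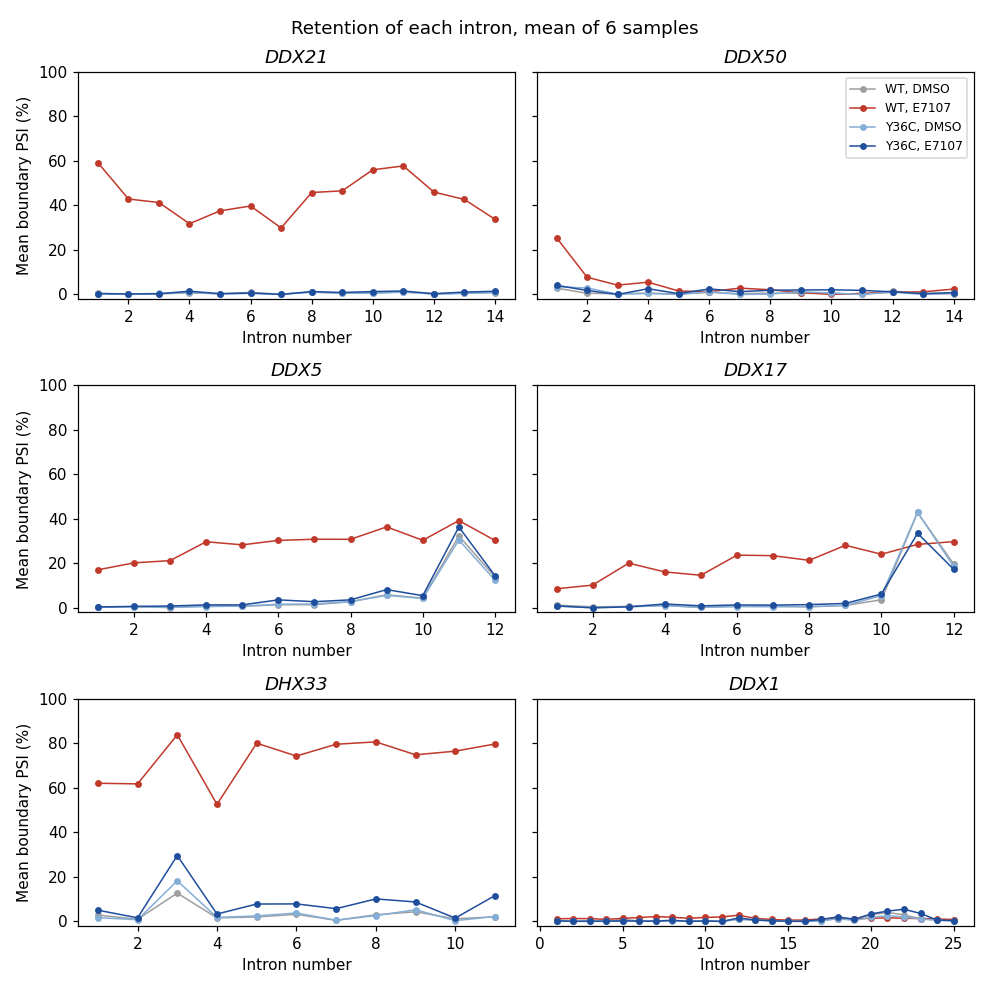
Mean boundary PSI in % (y axis, mean of both boundaries and of 6 samples) of each measured intron, by intron number from the 5′ end of the canonical transcript (x axis), in 6 helicase genes and 4 groups. All introns of DDX21 and DHX33 are raised in WT E7107 samples, DDX50 is highest at intron 1, DDX1 stays below 6% throughout, and intron 11 of DDX5 and DDX17 is the highest intron of its gene in the DMSO and Y36C E7107 samples.

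The remaining ribosome biogenesis helicases rose by less in WT cells. DDX31 went from 1.40% to 2.44% (median 1.96%) up to 23.2% to 41.9% (median 28.4%), the widest spread of any of the 16 genes. DDX56, DDX24, DDX49, DDX18, DDX10 and DDX52 changed by 26.8, 21.5, 21.4, 15.1, 14.2 and 11.1 percentage points. DDX54, DDX27 and DHX37 changed by 8.24, 8.16 and 6.29 percentage points. The groups of each of these genes did not overlap between DMSO and E7107.

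Of the 12 helicases of splicing and mRNA export, 11 rose in WT cells, where 72.4% of all genes tested rose. The largest changes were in DDX41, a helicase bound to the catalytic spliceosome, and in DDX20 (Gemin3), a subunit of the SMN complex that assembles snRNPs. DDX41 rose from 2.98% to 3.68% (median 3.31%) up to 57.7% to 61.3% (median 60.4%). DDX20 rose from 3.26% to 4.25% (median 3.51%) up to 56.3% to 63.6% (median 59.5%). DDX42, which associates with SF3b, changed by 31.9 percentage points, and DDX23, the helicase of the U5 snRNP, by 26.6.

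Paralogs of this class were compared side by side. DDX39A and DDX39B, both mRNA export helicases, had means of 8.82% ± 0.168 and 13.8% ± 1.26 under DMSO and of 37.9% ± 0.858 and 28% ± 1.16 under E7107. The cofactors of transcription and splicing DDX5 and DDX17 had means of 16% ± 0.365 and 6.08% ± 0.363 under DMSO and of 37.4% ± 0.803 and 21.7% ± 2.45 under E7107. These levels average all annotated boundaries, among them a DDX39B 3′ boundary outside its canonical introns at 99.0% (DMSO) and 99.5% (E7107). Over the measured canonical introns, the WT medians under DMSO and E7107 were 3.00% and 37.4% in DDX39A and 1.00% and 14.5% in DDX39B. They were 1.45% and 30.3% in DDX5 and 0.949% and 22.4% in DDX17. In percentage points of the gene level the larger change of each pair was in DDX39A and in DDX5. In natural-log odds DDX39A changed by 1.76 ± 0.03 (SE) and DDX39B by 0.85 ± 0.05, but DDX5 changed by less than DDX17, with 1.11 ± 0.04 against 1.34 ± 0.07. The export helicases DDX19A and DDX19B changed by 12.8 and 6.81 percentage points, and since these genes are near-identical, reads may be split between them in ways that could not be checked. DHX40 rose by 4.40 percentage points.

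All 9 helicases of translation, decay and other roles rose in WT cells, where 72.4% of all genes tested rose, with a median change of 13 percentage points over the 9. DHX36, which unwinds G-quadruplexes, rose from 1.71% to 2.33% (median 2.08%) up to 52.3% to 64.1% (median 59.0%). DDX3X, a translation factor for structured mRNAs, changed by 30.5 percentage points, DHX34, a decay factor, by 27.3, and DDX6, which represses translation and promotes decay, by 18. DHX57, DHX9, DHX30 and DHX29 changed by 13, 9.95, 9.78 and 4.88. DDX1 was the gene with the smallest change that passed the test. Its level was 0.673% to 0.981% under DMSO (median 0.759%) and 1.10% to 1.75% under E7107 (median 1.31%), groups that did not overlap (0.29 ± 0.06 in natural-log odds, adjusted p = 0.00036).

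Single introns showed how far the whole transcript was affected. The canonical transcripts of the 37 genes hold 592 introns, 591 with GT-AG ends and 1 with GC-AG ends, and 573 were measured at both boundaries in all samples. In WT cells 346 of them rose by at least 10 percentage points, and the median change over the 573 was 14.3. That share was not computed over all introns of the series, where the median change over all boundary rows tested was 11.1 percentage points. Differences between genes accounted for 78.5% of the variance of the change over the 573 introns, so that introns of the same gene were closer to each other than to those of other genes. In 8 genes (DDX21, DDX31, DDX39A, DDX41, DDX47, DDX51, DDX55 and DHX33) every measured intron rose by at least 10 points, and in DDX1 and DHX35 none did. The measured introns of DHX33 lay between 52.6% and 83.9% under E7107 and those of DDX1 between 0.575% and 2.79%.

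The highest retention among the measured introns was found in a run of short introns of DDX20. The 5′ boundary of intron 6 had a PSI of 0% to 7.58% in WT DMSO samples (median 3.34%) and 92.5% to 98.6% in WT E7107 samples (median 95.2%), with 0% to 4.76% (median 3.85%) in Y36C DMSO samples and 4.94% to 13.5% (median 8.45%) in Y36C E7107 samples. The WT E7107 samples stood far above all others, and the Y36C groups, though much closer, did not overlap either. The adjusted p was 8.2e-08 in WT cells and 0.056 in Y36C cells. Intron 5, which is 138 bases long, was at 91.4% (mean of both boundaries) and intron 4, of 117 bases, at 78.8% in WT E7107 samples. In DHX36, the 5′ boundary of intron 3 rose from a median of 9.76% to 90.8% in WT cells, and the 5′ boundary of an annotated junction of DDX56 outside its canonical transcript (chr7:44612037-44612161, minus strand) rose from 7.07% to 93.6%.

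Over rows, 873 of the 952 boundary rows tested in the helicase genes were higher and 11 were lower in WT cells under E7107, where 70.9% of all boundary rows tested were higher and 5.78% lower. Of 1268 other spliced rows, 977 were lower and 23 higher, where 41.7% and 4.49% of all such rows were. A row was tested only if some group had values above 0 throughout, so rows that rise from 0 are favoured, and these counts are a description. The rows lower in retention belonged to 4 genes, DDX1, DDX17, DDX27 and DHX37. The largest fall was at DDX17 intron 11, whose 3′ boundary fell from 51.2% to 56.7% (median 53.6%) to 26.2% to 55.0% (median 35.3%), with 1 E7107 sample inside the DMSO range (adjusted p = 0.0069). Its 5′ boundary fell from 27.6% to 35.5% (median 32.0%) to 12.7% to 24.1% (median 20.2%), with no overlap, and the spliced junction of intron 11 (chr22:38884121-38888060) rose from a median of 66.1% to 79% of the reads at the 5′ site. Of the 12 introns of DDX17, 9 rose by at least 10 percentage points, and intron 11 of its paralog DDX5 rose as well, where the 3′ boundary went from a median of 35.7% to 43.5%. DDX1 introns 20 to 22 also fell, for example at the 3′ boundary of intron 21 from a median of 3.46% (2.06% to 5.14%) to 0.559% (0% to 1.49%).

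The next comparison asked how Y36C cells responded to the same treatment. In Y36C cells the retention level rose under E7107 in 29 of the 37 genes and fell in none, where 48.4% of all genes tested rose and 0.935% fell. The median change was 1.27 percentage points over the 37 genes and 1.03 over all genes, and the largest was 8.22. By class, 13 of 16 ribosome biogenesis genes, 10 of 12 splicing and export genes and 6 of 9 genes of translation, decay and other roles rose. The 8 genes that did not pass were DDX3X, DDX6, DDX10, DDX17, DDX19B, DDX21, DDX47 and DHX57.

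The largest changes in Y36C cells were in DDX55, DDX51, DDX41, DHX33 and DDX39A. DDX55 had 14.3% to 16.6% under DMSO (median 15.2%) and 22% to 25.1% under E7107 (median 23.3%). DDX51 had 6.93% to 8.79% (median 7.76%) and 14.9% to 16.9% (median 15.7%). DDX41 changed by 5.68, DHX33 by 4.85 and DDX39A by 4.59 percentage points. The groups of all 5 genes were free of overlap. Among genes strongly retained in WT cells, DDX21 changed by 0.0856 percentage points (adjusted p = 0.88) and DDX47 by 0.135 (adjusted p = 0.18). At the low end DDX17 had a level of 5.36% to 6.48% under DMSO (median 6.13%) and 5.14% to 5.81% under E7107 (median 5.56%), overlapping groups (adjusted p = 0.078). Over introns of the canonical transcript outside other exons the change was 0.34 percentage points and upward (adjusted p = 0.047).

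Of the 573 introns, 26 in 13 genes rose by at least 10 percentage points in Y36C cells, and 23 of these did so in WT cells too. The share over all introns of the series was not computed here either. Of the 26, 18 had a GC content of 50% or more, a class that held 153 of the 573 measured introns, and their median length was 337.5 bases with a median GC content of 57.0%. The 346 introns that rose by 10 points in WT cells had medians of 850.0 bases and 43.3%, and all 573 had medians of 1025.0 bases and 42.6%. Across introns, which are not independent replicates and share libraries and genes, the rank correlation of the change with GC content was 0.13 in WT and 0.30 in Y36C cells (Spearman, n = 573), that with intron length was -0.21 and -0.24, and that between the changes of the 2 genotypes was 0.27. The rank correlation of the change with the level under DMSO was 0.25 in WT and 0.51 in Y36C cells, and the change is computed from the same DMSO samples. The 26 introns had a median of 9.35% in Y36C DMSO samples, beside 0.829% for all 573. Differences between genes accounted for 26.8% of the variance of the change in Y36C cells.

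**Figure D3:**
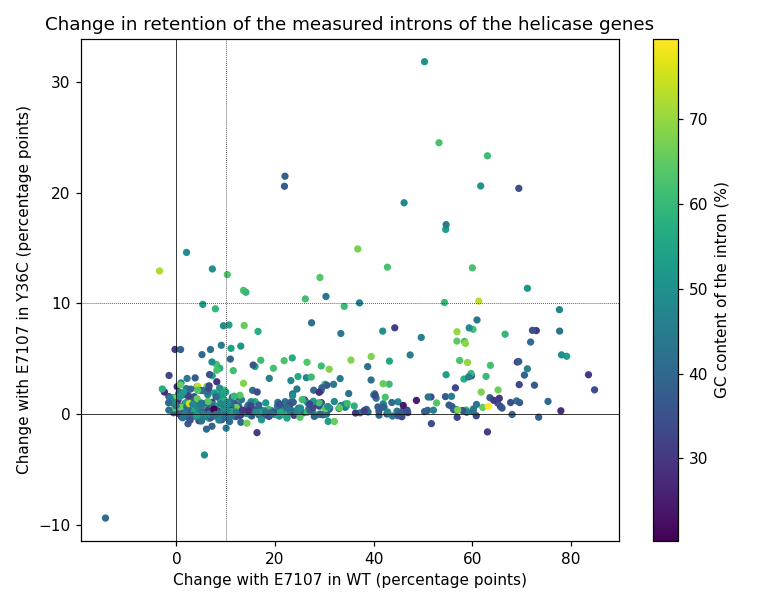
Change in mean boundary PSI with E7107 in WT cells (x axis, percentage points) against that in Y36C cells (y axis, percentage points) for 573 introns of the helicase genes, 1 point per intron, coloured by GC content in %. Dotted lines mark 10 points. Most introns lie along the x axis, 26 lie above the dotted line for Y36C cells, and DDX17 intron 11 is the lowest point on both axes.

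The intron with the largest rise in Y36C cells was DDX55 intron 11. Its 5′ boundary had a PSI of 8.41% to 21.1% in Y36C DMSO samples (median 12.2%) and 40.7% to 54.2% in Y36C E7107 samples (median 44.3%), against 4.12% to 17.3% (median 12.1%) and 55.2% to 76.9% (median 59.2%) in the WT groups. E7107 and DMSO samples were apart in both genotypes (adjusted p = 4.1e-05 in Y36C cells). In DDX51 the 5′ boundary of intron 6 rose from a median of 17% to 42.9% in Y36C cells and from 13.6% to 70.3% in WT cells. In DHX36 the 5′ boundary of intron 3 rose from 9.89% to 43.2% in Y36C cells, while the retention level of the whole gene changed by 2.43 percentage points there. In DDX27 the 3′ boundary of intron 12 rose from a median of 12.8% to 27.1% in Y36C cells (adjusted p = 0.00014), and in WT cells from 12.3% to 16.4% (adjusted p = 0.53). The interaction was not called there (12.7 percentage points, adjusted p = 0.072).

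DHX37 intron 22 moved in opposite directions in the 2 genotypes. Its 5′ boundary went from 3.07% to 9.09% (median 5.16%) to 0% to 5.88% (median 0%) in WT cells and from 1.35% to 9.92% (median 6.63%) to 9.88% to 23.7% (median 18.9%) in Y36C cells. The groups overlapped within each genotype, and both changes passed the test (adjusted p = 0.013 and 0.015). The difference between the changes was 14.8 percentage points (adjusted p = 0.00025). DDX1 intron 22 behaved likewise at its 3′ boundary, with medians of 3.51% and 1.68% in WT cells and 2.66% and 6.21% in Y36C cells. Of the 561 boundary rows of the helicase genes tested in both genotypes, 7 were called in opposite directions, or 1.25%, against 2.74% of all boundary rows so tested. They belonged to DDX1, DDX17, DDX39B, DHX9 and DHX37.

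**Figure D4:**
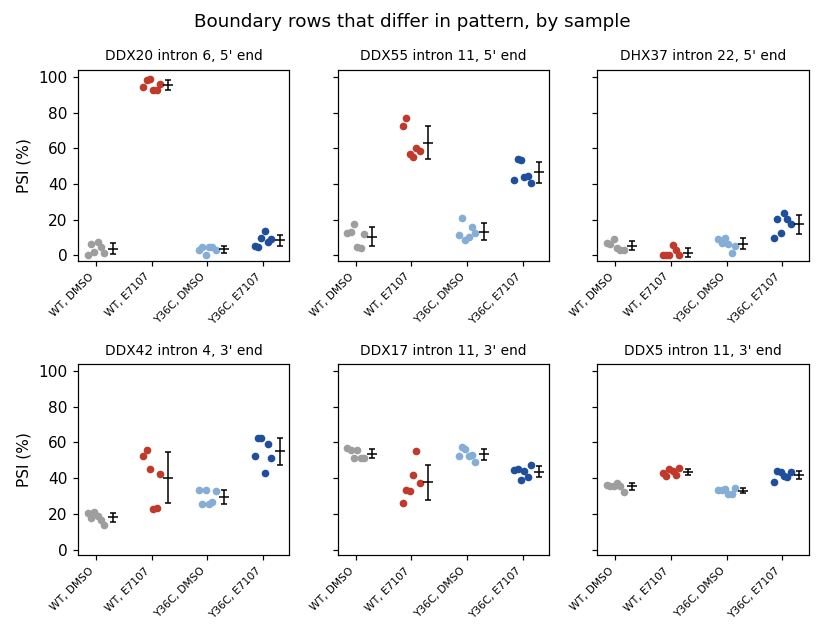
PSI in % (y axis) of 6 boundary rows, 1 point per sample in 4 groups of 6 samples (x axis), with the mean and SD as a bar beside each group. DDX20 intron 6 is high in WT E7107 samples, DDX55 intron 11 is high under E7107 in both genotypes, DHX37 intron 22 is highest in Y36C E7107 samples, DDX42 intron 4 is already higher in Y36C cells without drug, and DDX17 intron 11 falls where DDX5 intron 11 rises.

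Over rows, 241 of 616 boundary rows tested were higher and 6 lower in Y36C cells under E7107, where 27.5% and 1.43% of all boundary rows tested were. Of the 873 boundary rows higher in WT cells, 213 (24.4%) were higher in Y36C cells too, which is 88.4% of the 241. Of the 873, however, 497 were tested in Y36C cells, and of the 241, 227 were tested in WT cells. The 213 rows were 42.9% of the 497 and 93.8% of the 227, where these shares were 32.9% and 66.6% over all boundary rows. Of 1350 other spliced rows, 348 were lower and 24 higher, where 16.1% and 1.81% of all such rows were. The 2 comparisons share no sample. The largest fall in Y36C cells was at a 3′ boundary of DDX31 whose site is not annotated (chr9:135505766-135505767, minus strand), from 83.1% to 95.6% (median 92.4%) to 62.7% to 80% (median 69%), without overlap (adjusted p = 0.00038). In WT cells this boundary had medians of 96.4% and 87.5% and was not tested. Since the site is not annotated, its reads may be exonic, and the fall need not be less intron retention. The other rows lower in Y36C cells were both boundaries of DDX17 intron 11, 1 of its intron 12, 1 of DHX9 intron 6 and 1 of DDX39B. The 3′ boundary of DDX17 intron 11 went from 49.1% to 57.3% (median 52.7%) to 39.2% to 47.4% (median 44.3%), and the 3′ boundary of DDX39B, outside its canonical introns, had medians of 98.6% and 97.8%.

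Exon-skipping rows were counted in the same way. In WT cells 117 of 176 exon-skipping rows were higher and 19 lower under E7107, where 33.7% and 14% of all such rows were, and in Y36C cells 112 of 160 were higher and 0 lower, where 51.1% and 1.5% were. The rows higher in both genotypes numbered 32, or 27.4% of those in WT and 28.6% of those in Y36C cells, but only 34 of the 117 were tested in Y36C cells and only 55 of the 112 in WT cells. Among rows tested in both, the 32 made up 94.1% of the 34 and 58.2% of the 55, where these shares were 70.4% and 30.1% over all exon-skipping rows. In Y36C cells 0 of the 160 rows were lower at an unadjusted p under 0.05 too (limma; no other tool was run on these rows). A row that reached 0 in a DMSO sample could be tested only through the E7107 group. This favours rises, so the counts of rises and falls are a description.

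Skipping of DDX3X, DDX20, DDX47 and DDX21 exons rose in WT cells under E7107. The junction that omits DDX3X exons 2 and 3 (chrX:41193551-41200736), 106 coding bases in all and not a multiple of 3, was at 0% in all WT DMSO samples and at 29.2% to 45.3% (median 40.3%) in WT E7107 samples, and at most at 0.505% in Y36C samples. At the same 5′ site the reads running into intron 1 rose from a mean of 0.697% to 12.8% in WT cells, so that skipping took the larger share. The junction over the 83-base exon 8 of DDX20 went from 0% in all WT DMSO samples to 28.6% to 46.5% (median 37.6%) in WT cells, and to 1.08% to 8.45% (median 5.75%) in Y36C cells. DDX47 exon 4, of 72 bases and a multiple of 3, was omitted in 24.7% to 35.4% (median 30.4%) of reads in WT E7107 samples and in 6.74% to 13.2% (median 9.02%) in Y36C E7107 samples. DDX21 exon 14, of 45 bases, was omitted in a median of 0.861% and 26.4% of reads in the WT groups and 0.785% and 2.18% in the Y36C groups. For all 4 junctions the change differed between genotypes, with adjusted p of the interaction (limma) from 5.2e-07 to 1.1e-15. The DDX3X row, however, was tested only because it was above 0 throughout the WT E7107 samples. The DDX20 and DDX47 rows were likewise tested only through E7107 groups. The p-values of these rows are therefore a description, whereas the DDX21 row was above 0 in every sample.

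Other skipping events were larger in Y36C cells. The junction that omits DDX31 exons 17 and 18 was at 7.69% to 18.6% (median 9.96%) in WT DMSO samples, 0% to 21.4% (median 5.00%) in WT E7107 samples, 12.9% to 30.8% (median 14.2%) in Y36C DMSO samples and 45% to 65.4% (median 52%) in Y36C E7107 samples. Only the Y36C E7107 samples stood apart, and in the WT E7107 samples 32.4% of reads at the site ran into intron 16. DHX57 exon 19, 84 bases long and a multiple of 3, was omitted in a median of 4.52% and 0% of reads in the WT groups and in a median of 3.24% and 33.5% in the Y36C groups, with 19% to 44.8% in the Y36C E7107 samples.

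DHX33 showed a change of path at the same sites. Exon 2, of 161 bases, was omitted at its 5′ site in a mean of 27.2% (DMSO) and 29% (E7107) of reads in WT cells and of 29.2% and 55.7% in Y36C cells, and the reads running into intron 1 were 2.32% and 52.1%, then 1.8% and 3.06%. Exon 6, of 112 bases, was omitted in 5.07% and 1.79% of reads in WT cells and in 10.9% and 31.7% in Y36C cells, while the reads crossing the 3′ boundary of intron 6 were 3.26% and 75.8%, then 3.85% and 5.13%. DHX36 exon 21 followed the same course, with 2.9% and 0% for skipping in WT cells and 3.88% and 14.1% in Y36C cells, and with 5.85% and 75.6%, then 5.9% and 8% for the 3′ boundary of intron 21. The skipping rows of DHX33 exon 6 and DHX36 exon 21 were called lower in WT and higher in Y36C cells, as were rows of DDX54 exon 13 and DHX34 exon 6. Since the paths at a site sum to 100%, these shares are not independent of retention at the site. Of the 86 exon-skipping rows of the helicase genes tested in both genotypes, 6 were called in opposite directions. This was 6.98%, close to the 6.27% of all exon-skipping rows so tested. In WT cells the share omitting DHX30 exon 4 fell too, from a mean of 6.19% to 0.699%, as did that omitting DDX55 exon 11, from 2.67% to 0%.

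**Figure D5:**
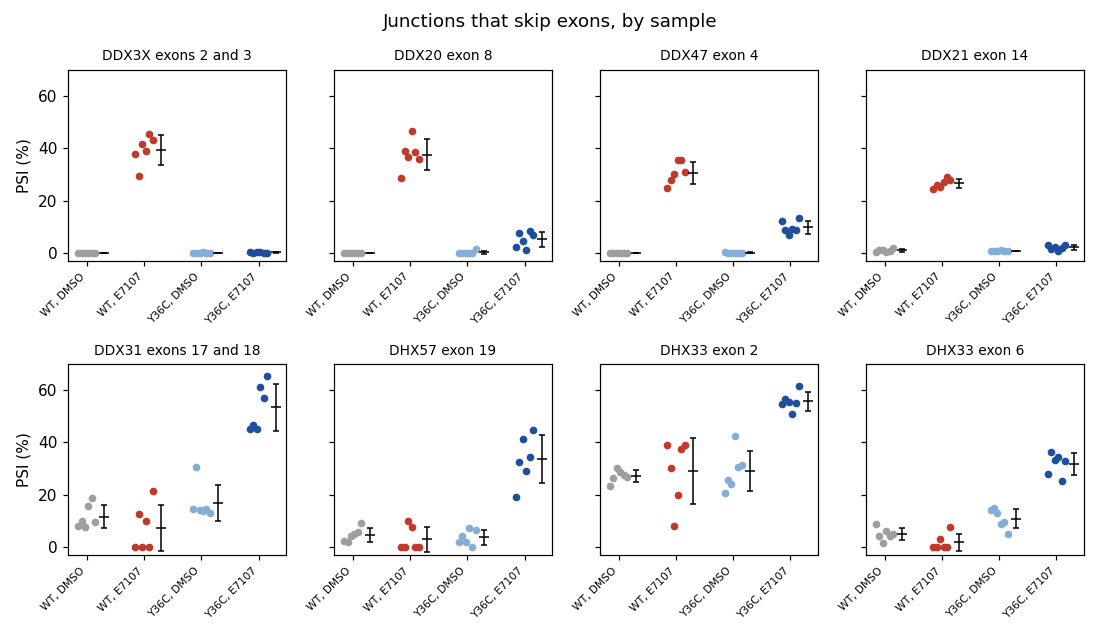
PSI in % (y axis) of 8 exon-skipping rows, 1 point per sample in 4 groups of 6 samples (x axis), with the mean and SD as a bar beside each group. The upper row shows DDX3X, DDX20, DDX47 and DDX21, where WT E7107 samples are highest, and the lower row shows DDX31, DHX57 and DHX33, where Y36C E7107 samples are highest.

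A splice-site choice of DHX30 changed in the same direction in both genotypes, whereas several other junctions did not. At the 5′ site of intron 3 of DHX30, a helicase of translation control in mitochondria and cytoplasm, the annotated junction chr3:47852202-47857452 rose from 34.9% to 56.8% (median 44.1%) to 69.6% to 84.1% (median 77.2%) in WT cells and from 31.7% to 46.3% (median 41.9%) to 61.2% to 78.2% (median 66.8%) in Y36C cells. The groups did not overlap in either genotype, and the junction of the canonical intron 3 fell from a mean of 47.9% to 20.3% and from 53.9% to 21.8%. The difference between the 2 changes was -4.42 percentage points (adjusted p = 0.37). Under E7107, however, the first junction differed by -9.20 points in Y36C against WT cells (limma, adjusted p = 0.039). The share omitting exon 4 at this site had means of 6.19% and 0.699% in WT cells. In Y36C cells it had means of 4.67% and 8.01% (limma, adjusted p of the interaction = 0.00016). A DDX3X junction at chrX:41196719-41196943 rose in WT cells from 0.522% to 1.37% (median 1.15%) to 3.21% to 6.28% (median 3.71%), without overlap (adjusted p = 2.5e-05), and had medians of 0.526% and 0.491% in Y36C cells (adjusted p = 0.88). In DDX42 a junction at chr17:61877978-61882403 rose only in the Y36C test, from a median of 5.13% to 15.9% (adjusted p = 8.7e-06), against 5.56% and 4.32% in WT cells (adjusted p = 0.062), and the interaction passed the test (adjusted p = 1.3e-07). The junctions that fell most in Y36C cells were DDX31 intron 16, from a median of 82.3% to 36.4%, DHX35 intron 16, from 80.7% to 39.6%, and DDX55 intron 11, from 84.7% to 51.7%, and the groups of each did not overlap. In DHX29, a translation initiation helicase, an annotated junction at chr5:54569255-54570441 rose from a median of 3.17% to 13.1% in Y36C cells and fell from 4.21% to 0% in WT cells.

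Without drug the genotypes were close. Of the 37 genes 0 differed in retention level between Y36C and WT cells under DMSO (limma; 4 had an unadjusted p under 0.05, DDX1, DDX20, DDX42 and DHX9), where 0.37% of all genes tested were higher and 0.253% lower. The differences lay between -0.68 percentage points in DHX35 and 1.09 in DDX42. Of 553 boundary rows tested 2 were higher and 0 lower in Y36C cells (0.204% and 0.165% of all boundary rows), of 82 exon-skipping rows 0 differed (10 were higher and 9 lower at an unadjusted p under 0.05, and 0.468% and 0.188% of all were called), and of 1341 other spliced rows 3 were lower and 0 higher (0.118% and 0.0906% of all). All 5 rows belonged to introns 4 and 5 of DDX42. The intron 4 3′ boundary had a PSI of 13.8% to 21.3% (median 18.2%) in WT DMSO and 25.5% to 33.3% (median 29.6%) in Y36C DMSO samples, without overlap (adjusted p = 0.049), and its spliced junction was at 77% to 83.4% (median 79.9%) and 62.4% to 76% (median 64%) of reads at the 5′ site (adjusted p = 0.032). The 3′ boundary of intron 5 was at 18.8% to 21.1% (median 20.7%) and 25.3% to 34.8% (median 30.6%), again without overlap (adjusted p = 0.019). All 5 calls were lost when the replicate number was a block or when rows with low values were kept. The intron 4 boundary also lost its call when any 1 of the 12 samples was left out. Under E7107 the boundary of intron 4 reached a median of 43.7% (WT) and 55.7% (Y36C), with ranges of 22.7% to 55.6% and 43.1% to 62.5% that overlapped (adjusted p = 0.068), and the change did not differ detectably between genotypes (adjusted p = 0.98).

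Under E7107 the genotypes were compared directly, and the interaction asked whether the response itself differed. In E7107 samples 36 of the 37 genes were lower in Y36C than in WT cells and 0 were higher, where 65% of all genes were lower and 15.4% higher. The interaction was called for 35 genes, all with a lower change in Y36C than in WT cells. Of all genes tested, 60.7% had a negative and 13.6% a positive interaction. These 2 comparisons share the E7107 samples with those above. DHX35 passed neither test. DDX1 had a difference of -0.326 percentage points in E7107 samples (adjusted p = 0.026), but its changes of 0.599 in WT and 0.514 percentage points in Y36C cells were not called different (adjusted p = 1.0). The largest interactions were in DHX33, DHX36 and DDX20, at -65.3, -54.4 and -54.3 percentage points.

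Over rows, 835 of 965 boundary rows were lower and 22 higher in Y36C than in WT cells under E7107, where 62.9% and 11.7% of all boundary rows were, and the interaction was negative for 794 and positive for 17 of 972, where 54.9% and 8.97% of all were. Among the rows higher in Y36C cells whose groups did not overlap, the 3 genes with the largest differences were DHX37 at intron 22, DDX39B at intron 6 and DDX1 at intron 22. Some called rows with overlapping groups differed by more than DDX39B, among them the 5′ boundary of DDX27 intron 12, by 12.5 percentage points (adjusted p = 0.0077). The 5′ boundary of DDX39B intron 6 had medians of 13.8% and 24.9% in the WT groups and 13.6% and 32.5% in the Y36C groups, with ranges of 18.7% to 27.8% and 30.4% to 34.1% under E7107 (adjusted p = 0.0022). DDX49 intron 9 joined them in the interaction, with medians of 4.22% and 4.40% in WT and 1.35% and 11.3% in Y36C cells at its 3′ boundary. Of the exon-skipping rows, 81 were higher and 97 lower of 236 (44.2% and 19.3% of all), and the interaction was positive for 74 and negative for 96 of 244 (35% and 16.1%). Of the other spliced rows, 908 were higher and 51 lower of 1276 (37.6% and 10.7%), and the interaction was positive for 849 and negative for 37 of 1297 (32.1% and 7.96%). The junctions that stood highest in Y36C against WT cells under E7107 were those of DDX20 intron 5, with medians of 92.1% and 2.78% at the 3′ site, of DDX56 at chr7:44612037-44612161, with 93.3% and 5.72%, and of DDX21 at chr10:70716505-70719561, with 91.7% and 1.92%, though the Y36C samples of the last ranged from 42.9% to 100%. The boundaries that stood lowest were in the same 3 genes, and that of DDX21 was at an unannotated 5′ site (chr10:70723938-70723939), with 77.8% to 94.7% (median 86.4%) in WT and 0% to 22.2% (median 0%) in Y36C cells (adjusted p = 2.7e-06). In the interaction it was the 5′ boundary at chr10:70716505-70716506, at -82.2 percentage points (adjusted p = 0.00027). This row ranged from 0% to 50% in WT DMSO samples and from 95.5% to 99.4% in WT E7107 samples. It ranged from 0% to 57.1% in the Y36C DMSO samples and in the Y36C E7107 samples. The wide spread outside the WT E7107 samples rests on an unknown number of reads. The junctions lowest in Y36C cells under E7107 were those of DHX57 intron 19, where the WT samples had a median of 96.2% and the Y36C samples one of 65.3%, of DDX19B intron 1, and of DHX37 intron 22, with 98.8% and 76.7%. Intron 1 of DDX19B showed the opposite sign to most, since its junction was at medians of 80.8% and 82.9% in the WT groups and 82.9% and 49.4% in the Y36C groups (adjusted p of the interaction = 9.9e-05).

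Another 19 helicase genes of the same superfamily were listed, with earlier results of these data known, and 17 had enough boundaries to be tested. Of these 16 rose in WT cells and 10 in Y36C cells under E7107, where 72.4% and 48.4% of all genes rose. Their median changes were 12.8 and 1.10 percentage points, beside 6.69 and 1.03 over all genes. The translation factor EIF4A2 had the largest change in WT cells, from a mean of 24.0% to 76.5%, with 24.3% and 26.6% in Y36C cells. DDX60, an interferon-inducible gene, was the only one higher in Y36C than in WT cells under E7107 (a mean of 3.81% against 0.37%, adjusted p = 0.0027).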

How the data were processed

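The deposited files hold a percent (PSI) per junction and sample. According to the submitters' processing notes and the study's methods, the authors aligned reads to hg19 with STAR (version not given in the sources used here) and divided the reads of each junction or exon-intron boundary by all reads sharing its splice site. No counts were used here, so depth is unknown. The helicases and gene lists were chosen with earlier results of these data known.

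Mitochondrial rows and rows with no strand (6433 of 1830076) were left out. A site at 0 in all its rows was taken as having no reads. Junctions were placed on GENCODE v44lift37 (GRCh37) and introns on Ensembl canonical transcripts. Whether the libraries kept strand is not given in the sources used here, so boundary reads of overlapping antisense genes could not be told apart.

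Natural-log odds, ln((PSI + 1)/(101 - PSI)), were fitted with limma 3.58.1 (R 4.3.3), 2-sided, over all rows covered in every sample compared and nonzero throughout at least 1 group, and separately over 10266 genes with at least 4 boundaries. Benjamini-Hochberg adjusted p-values of 0.05 or less were called. Named were the 3 genes with the largest and smallest changes per comparison, and per row kind the 3 called, non-overlapping rows of largest change in each direction, 1 per gene, with both ends annotated for spliced rows. Rows and genes beyond this rule (the printed introns and both their boundaries, paralog pairs, DDX27 intron 12, EIF4A2 and DDX60) were chosen after their values were seen. The fits were tested on simulated data. Alternatives were an offset of 0.1, PSI untransformed, a replicate block, a minimum change of 10 points, no low-value filter, the median over boundaries, canonical introns only (added after seeing the data), and leaving out each sample.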

Additional observations from a re-analysis of the deposited data

Results flagged for a closer look

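The response to E7107 differed between the genotypes, by the interaction term of limma, for 35 of the 37 helicase genes in retention level. It differed for 811 of 972 boundary rows, 170 of 244 exon-skipping rows and 886 of 1297 other spliced rows. Over the whole series, 60.7% of genes had a negative and 13.6% a positive interaction. These shares were 54.9% and 8.97% of boundary rows, 16.1% and 35% of exon-skipping rows, and 7.96% and 32.1% of other spliced rows.

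Of the 148 groups of 6 samples (37 genes in 4 groups), 7 held a sample whose gap to its nearest neighbour exceeded Dixon's 95% critical value, and 7.4 are expected by chance, which flags about 1 in 20 groups. The WT E7107 replicate 5 was the lowest of its group for DDX41, at 57.7%, and for DDX49, at 22.6%. In Y36C DMSO samples, replicate 2 was the highest for DDX27, at 3.56%, and for DHX29, at 2.39%, replicate 1 for DDX10, at 0.411%, and replicate 3 for DDX6, at 1.11%. In Y36C E7107 samples, replicate 6 was the lowest for DDX3X, at 7.62%.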

How the results depend on the processing

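Of 185 gene results (37 genes in 5 comparisons), 120 kept their direction and side of the threshold under every alternative, and of 70 named rows 56 did. Depth is unknown, so values near 0% rest on an unknown number of reads, and DHX35 rests on 5 introns.

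With a minimum change of 10 percentage points, exon-skipping calls moved from 136 to 23 in WT cells, from 112 to 18 in Y36C cells, from 178 to 34 between genotypes under E7107 and from 170 to 34 for the interaction. In Y36C cells boundary calls moved from 247 to 61, other spliced calls from 372 to 102 and gene calls from 29 to 0. Without drug, the 2 boundary calls became 1 with an offset of 0.1 and 0 without the low-value filter, the 3 other spliced calls became 1 and 0, and leaving out 1 sample gave 1 to 2 boundary, 1 to 2 other spliced and 0 to 3 exon-skipping calls. DDX42 intron 4 lost its boundary call when any 1 of the 12 DMSO samples was left out (adjusted p up to 0.099). The cause was not tested.

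The labels give each group the numbers 1 to 6. Samples of the same number did not deviate together (correlations between -0.0067 and 0.0066). Since depth is unknown and noise in single rows can hide a weak shared part, this cannot exclude a shared culture or batch. With a replicate block the boundary and other spliced calls without drug were 0 and 0, and the adjusted p of DHX35 and DDX5 in Y36C cells became 0.072 and 0.070 and that of DDX1 between genotypes under E7107 0.072. DHX57 was then called in Y36C cells (adjusted p = 0.039).

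The change of DDX17 in Y36C cells turned upward with the median over boundaries (0.59 points, adjusted p = 0.0029) and with canonical introns (0.34). With the median, DHX34 in Y36C cells changed by -0.0240 points, and DDX50 differed by 0.12 points between genotypes under E7107 and in the interaction. Leaving out 1 sample ended the calls of DDX5 in Y36C cells (1.08 to 1.28 points, 6 samples), of DHX35 in Y36C cells (0.831 to 1.05, 3 samples) and of DDX1 under E7107 (-0.31 to -0.254, 4 samples).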

Other observations

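In the last 50 bases of an intron, the motif CTNAC (transcript strand, N any base) was found in 23.7% of the 573 measured helicase introns and in 24.9% of 182369 annotated introns of at least 60 bases. The median change in WT cells was 13.6 percentage points for the helicase introns with the motif and 14.4 for those without it. In Y36C cells the medians were 0.686 and 0.583. A match is a description of the letters and not a branch point.

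Retention without drug was concentrated in few introns. The median of the 573 introns was 0.997% in WT DMSO samples, whereas DDX17 intron 11 was at 42.9%, DDX55 intron 4 at 38.3%, DDX54 intron 19 at 34.9%, DDX5 intron 11 at 32.4% and DDX19B intron 10 at 31.9% (means of both boundaries). DHX34 intron 1 went from 17.5% to 23.2% in WT and from 17.7% to 14% in Y36C cells. Of the 35 measured introns at position 1 of the transcript, the median change was 17.9 percentage points in WT cells, against 14.1 for inner and 13.4 for last introns.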
